A study of Rattus norvegicus with 20 samples.

Results

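The livers of 5 rats fed sesamolin were compared with the livers of 5 rats fed episesamin, which makes 10 of the 20 arrays of the series. The members are the arrays that the sample titles assign to these 2 diets, and no measured value was used to choose them. All were male Sprague-Dawley rats that arrived at 4 weeks of age, were acclimatised on a commercial diet for 7 d and then ate a diet with 0.2% of episesamin or of sesamolin for 15 d. The other 2 groups, which served as reference, ate for 15 d either no lignan (the lignan-free diet) or 0.2% sesamin. Each group held 7 rats, and liver RNA of 5 of them was hybridised to Affymetrix arrays, each rat to its own, because the heaviest and the lightest rat of each group were left out. All groups therefore share the strain, the sex, the age and this selection by body weight, and a single dose and time were measured.

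Episesamin and sesamolin are lignans of sesame, polyphenol derivatives that end in methylenedioxyphenyl groups on either side of a furofuran core. Episesamin is the epimer of sesamin, with the same atoms and a different configuration where an aromatic ring is attached. Sesamolin differs from both by an oxygen atom that links an aromatic ring to the core. In rat liver these lignans are known for raising enzymes that break down fatty acids, many of which are targets of peroxisome proliferator-activated receptor alpha (PPAR alpha). This nuclear receptor is activated by fatty acids, pairs with a retinoid X receptor and binds direct repeats of the half-site AGGTCA spaced by a single base. Its targets include peroxisomal and mitochondrial beta-oxidation enzymes, acyl-CoA thioesterases and the Cyp4a omega-hydroxylases.

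The question was whether any liver transcript differed between the 2 diets, and, where none was found to differ, how small a difference the data allow. No gene passed the test. Of 11576 genes tested, 0 were called at an adjusted p below 0.05 (limma, Benjamini-Hochberg; 0% higher and 0% lower), and the lowest adjusted p was 0.368. At an unadjusted p below 0.05 there were 663 genes, 5.73% of those tested, of which 326 (2.82%) had the higher level with sesamolin and 337 (2.91%) the lower. The 5 arrays of one diet lay wholly above the 5 arrays of the other for 93 genes (0.803%), 47 higher (0.406%) and 46 lower (0.397%) with sesamolin. When the p-values of all 3 pairs of lignans were adjusted together, 8 genes were called between sesamolin and episesamin, 6 higher and 2 lower. The other pairs, in which 210 genes (1.81%, sesamolin against sesamin) and 142 genes (1.23%, episesamin against sesamin) were called, supply more low p-values to that adjustment.

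A p above the threshold does not show that the diets act alike, so each difference was also set against its 95% interval. Values are log2 differences of normalized intensity, sesamolin minus episesamin, ± SE (n = 5 rats per diet) unless stated, and levels are normalized intensities as mean ± SD. The interval lay wholly within 2-fold in either direction for 10235 genes (88.4%) and within 1.5-fold for 7427 genes (64.2%). By 2 one-sided tests adjusted over all genes, 10636 genes (91.9%) differed by less than 2-fold. A fitted difference of 2-fold or more was found for 48 genes (0.415%). The median interval reached 0.34 to either side of the difference, and the data could resolve a smaller difference in bright genes than in dim ones. Among the dimmer 5788 genes the median reach was 0.47 and 40.6% lay within 1.5-fold. Among the brighter 5788 genes it was 0.25 and 87.7% did.

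Depth in the sense of read counts does not apply to arrays, and the number of arrays limits the precision. Mean raw intensity was 213 ± 36.1 with episesamin and 221 ± 45.3 with sesamolin, and the arrays of the 2 diets overlapped (exact permutation p = 0.754, two-sided, n = 5 per diet; the smallest p this design allows is 0.00794). The 3' to 5' ratio of the GAPDH control, a sign of RNA integrity, was 0.18 ± 0.06 with episesamin and 0.26 ± 0.04 with sesamolin on the log2 scale (exact permutation p = 0.0635, two-sided). For the actin control it was 1.11 ± 0.19 and 1.26 ± 0.08 (exact permutation p = 0.127, two-sided). Correlations over genes between an episesamin and a sesamolin array ran from 0.958 to 0.974, which covers the range within episesamin (0.959 to 0.974) and within sesamolin (0.960 to 0.973). Between sesamin and episesamin arrays they ran from 0.956 to 0.973, and between lignan-free and episesamin arrays from 0.949 to 0.968. These ranges overlap, so the correlations separate the diets little. The liver label fitted the hepatocyte markers, of which 7 of 8 were measured at mean levels from 6398 (Cps1) to 14346 (Alb) with episesamin. Of the markers of other cells, the bile duct genes Epcam (162 and 186 with episesamin and sesamolin) and Krt19 (43.3 and 51.8), the leukocyte genes Ptprc, S100a8 and S100a9 and the pancreas gene Cela1 (818 and 743) were above the filter level of 17.8 in both diets. So were the red blood cell genes Hbb (10069 and 9484) and Alas2 (339 and 320). Measured markers of macrophages, stellate cells and endothelium were all above it as well. Krt7, Cd8a, Cd79b, Lep, Adipoq, Plin1, Prss1 and Amy2a3 were below this level in both diets, and Cd3e was below it with episesamin only.

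Transcripts that the 2 diets had moved away from the lignan-free diet were examined next, because a shared response of unequal size would appear there. These responsive genes were chosen on the mean of the 2 diets against the lignan-free diet (adjusted p below 0.05). With groups of equal size, the fitted value of this contrast is independent of the fitted difference between the diets. Both use the same estimate of spread, so the choice favours genes with narrow intervals. There were 1045 (9.03%), 534 higher (4.61%) and 511 lower (4.41%) than without lignan. None of them was called between the diets, and 73 (6.99%) had an unadjusted p below 0.05 against 5.73% over all genes. Below, a gene rose or fell against the lignan-free diet if the mean of the 2 diets passed this test. The interval lay within 2-fold for 994 (95.1%) and within 1.5-fold for 814 (77.9%), beside 88.4% and 64.2% over all genes. The median interval reached 0.27 to either side, against 0.34 over all genes. The higher shares therefore do not show by themselves that responsive genes agreed more closely. With the sign turned so that positive means a larger response to sesamolin, the median difference over the 1045 genes was 0.0091.

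Of the responsive genes, 93 rose by at least 2-fold on the mean of the diets. Their mean log2 change from the lignan-free mean on the 5 episesamin arrays was 1.98, 1.80, 1.85, 1.81 and 1.86. On the 5 sesamolin arrays it was 1.97, 1.42, 1.87, 1.80 and 1.94. The arrays overlapped, and sesamolin replicate 2 was the lowest of the 10. Sesamin arrays averaged 0.89 ± 0.17 over the same genes, below every array of both diets. Since episesamin and sesamolin arrays chose these genes and sesamin arrays did not, the choice itself favours a lower sesamin value. Of the 93 genes, 31 (33.3%) had the higher level with sesamolin, beside 50.2% over all genes. Without sesamolin replicate 2, and with the raised genes chosen anew, the share was 55.1%. Over the alternatives other than leaving out single arrays it ran from 26.7% to 48.2%. The interval lay within 2-fold for 75 of the 93 (80.6%, beside 88.4% over all genes) and within 1.5-fold for 39 (41.9%, beside 64.2%). The most raised genes were thus bounded less tightly than all genes.

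**Figure D1:**
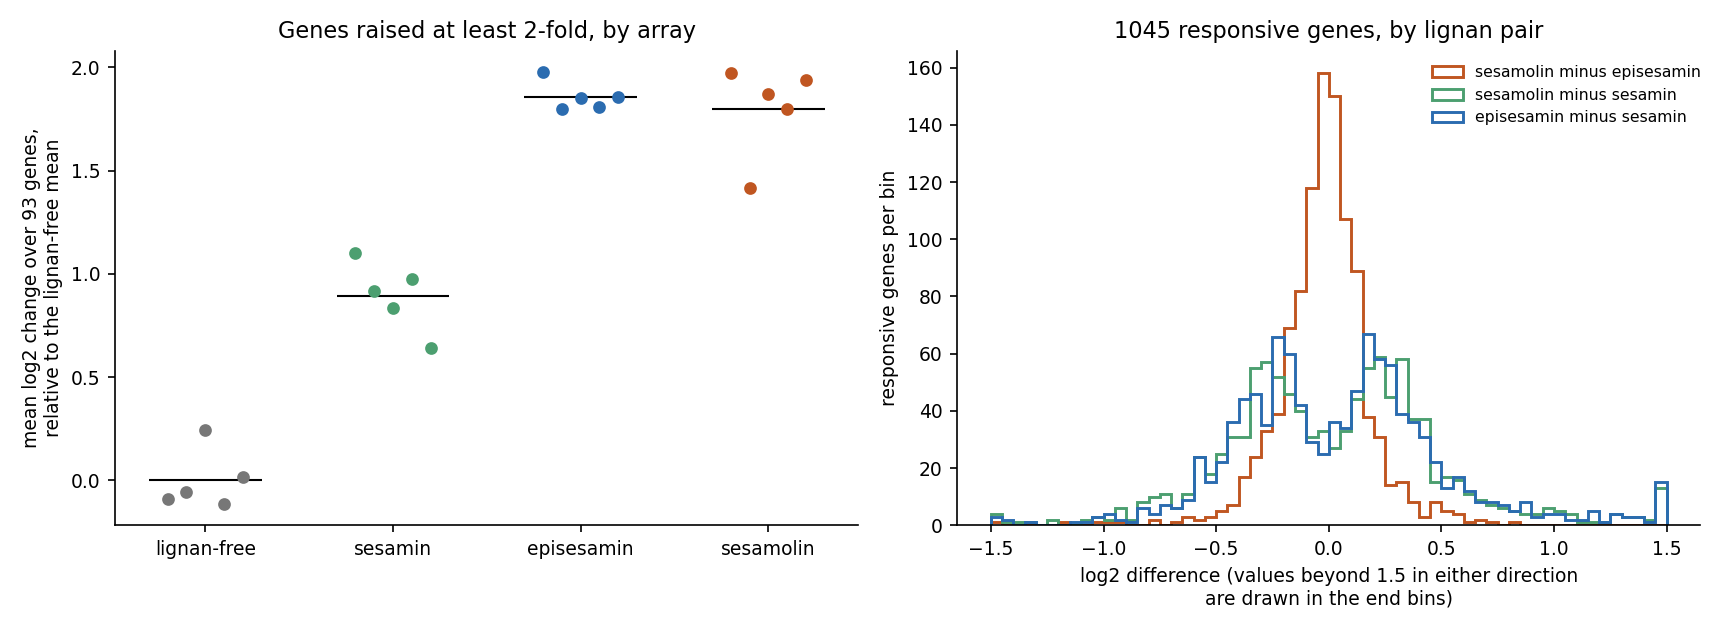
The left panel plots the mean log2 change from the lignan-free mean over the 93 genes raised at least 2-fold, 1 point per array with a line at the group mean: episesamin and sesamolin arrays lie between 1.42 and 1.98 and sesamin arrays lie lower. Episesamin and sesamolin arrays chose these 93 genes, which favours lower values for sesamin. The right panel counts the 1045 responsive genes by log2 difference for each pair of lignans; the median absolute difference is 0.097 for sesamolin minus episesamin, 0.300 for sesamolin minus sesamin and 0.286 for episesamin minus sesamin, and since episesamin and sesamolin arrays chose these genes, the pairs with sesamin are not independent of the choice.

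Over all 11576 genes, which no value chose beyond the filter on dim probe sets, the median absolute difference was 0.113 between sesamolin and episesamin. It was 0.152 between sesamolin and sesamin and 0.150 between episesamin and sesamin. Against the lignan-free diet it was 0.176 for episesamin and 0.182 for sesamolin. The pairs share arrays, so these medians are given side by side without a test.

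Reference promoters of 3 genes are shown here because the genes mark the poles of the comparison. Eci1, an enoyl-CoA isomerase of mitochondrial beta-oxidation, is a strongly raised gene with a narrow interval around equal levels. Akr7a3, an aldo-keto reductase that detoxifies aldehydes, had the lowest p of all characterised genes, and Asrgl1, an asparaginase, had the largest difference among the 12 of lowest p. Each sequence runs 5' to 3' on the strand of its gene from 250 bases before the start to 50 bases from it, from RefSeq on build GRCr8, and capitals mark a match to AGGTCA on either strand. Eci1 lies at chr10:13961000-13961299 on the plus strand, Akr7a3 at chr5:156876471-156876770 on the plus strand and Asrgl1 at chr1:215456139-215456438 on the minus strand.
Eci1: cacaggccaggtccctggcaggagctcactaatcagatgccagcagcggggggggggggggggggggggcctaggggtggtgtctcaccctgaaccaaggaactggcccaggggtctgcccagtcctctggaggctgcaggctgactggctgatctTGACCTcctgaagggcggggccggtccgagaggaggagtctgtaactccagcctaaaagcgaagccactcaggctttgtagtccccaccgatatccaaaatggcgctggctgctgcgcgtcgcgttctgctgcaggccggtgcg
Akr7a3: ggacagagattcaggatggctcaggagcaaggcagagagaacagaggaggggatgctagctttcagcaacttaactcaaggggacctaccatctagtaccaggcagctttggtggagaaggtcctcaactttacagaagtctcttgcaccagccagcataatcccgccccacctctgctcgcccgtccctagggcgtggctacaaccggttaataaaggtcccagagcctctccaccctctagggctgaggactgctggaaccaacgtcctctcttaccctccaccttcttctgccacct
Asrgl1: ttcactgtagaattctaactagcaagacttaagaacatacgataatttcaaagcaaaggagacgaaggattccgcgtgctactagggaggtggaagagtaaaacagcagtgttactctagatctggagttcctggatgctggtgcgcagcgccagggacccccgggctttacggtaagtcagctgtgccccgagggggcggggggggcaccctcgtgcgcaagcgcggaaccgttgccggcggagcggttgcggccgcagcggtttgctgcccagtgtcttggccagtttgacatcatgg
The Eci1 window holds 1 match, TGACCT, whose first base is at position -94 from the start; these letters were found in neither other window. AGGTCA was searched on both strands of all promoters of the same length. It occurred in 12.5% of 9636 promoters of tested genes, in 18.8% of 80 promoters of genes raised at least 2-fold and in 7 of 28 promoters of genes lowered at least 2-fold. The full repeat AGGTCANAGGTCA, which contains the half-site, was present in 4 of 9636 (0.0415%) and in 0 of the 80. TGACNNNGC, the core of the antioxidant response element that NRF2 (nuclear factor erythroid 2-related factor 2) binds, was in 14.6% of all, in 13.8% of the raised and in 7.14% of the lowered, and in none of the 3 windows shown. The window of Acot1, the gene with the largest rise, was searched as well and is not shown. It held neither AGGTCA nor TGACNNNGC, so the match in Eci1 does not stand for raised genes in general. A match is a description of the letters and not evidence of binding.

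Mitochondrial beta-oxidation transcripts rose against the lignan-free diet and stood close to each other in the 2 diets. Eci1 levels were 11239, 11786, 10486, 9805 and 10442 with episesamin and 11688, 9277, 11239, 10224 and 11182 with sesamolin, against a mean of 1579 without lignan. The arrays overlapped throughout, and the difference was -0.01 ± 0.12 with an interval from -0.25 to 0.24. Of the 25 measured genes of the list, 20 rose and 0 fell against the lignan-free diet (4.61% and 4.41% of all genes did). Between the diets 0 of 25 had an unadjusted p below 0.05 (5.73% of all genes did), and the median difference was -0.05. With sesamolin 6 of the 25 were higher and 19 lower, while 50.2% of all genes were higher. The interval lay within 2-fold for all 25 and within 1.5-fold for 21, beside 88.4% and 64.2% of all genes. Among the brighter 5788 genes 97.7% and 87.7% did, so intervals this narrow are common in bright genes. Acaa2, the last thiolase of the pathway, was at 9266 ± 269 with episesamin and 8730 ± 941 with sesamolin, and Acat1, an acetyl-CoA acetyltransferase, at 4939 ± 603 and 4655 ± 374. Slc22a5, the carnitine importer, had the most negative difference of the list at -0.28 ± 0.16 (interval -0.62 to 0.05).

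Crat, which moves acyl groups between coenzyme A and carnitine, was at 1461, 1420, 1270, 1260 and 1401 with episesamin and at 1403, 643, 1621, 1384 and 1498 with sesamolin. Sesamolin replicate 2 stood far below the other 4 sesamolin rats, and the remaining values overlapped. Both diets lay far above the lignan-free mean of 118, and their difference was -0.12 ± 0.19 (interval -0.53 to 0.28).

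The peroxisomal branch, which shortens very long and branched fatty acids, gave the same picture. Of 20 measured genes of peroxisomal oxidation, 13 rose and 0 fell against the lignan-free diet (4.61% and 4.41% of all genes did). Between the diets, 0 of 20 had an unadjusted p below 0.05 (5.73% of all genes did), and the median difference was -0.06. With sesamolin 5 of the 20 were higher and 15 lower, while 50.2% of all genes were higher. Within 2-fold lay 20 and within 1.5-fold 16, beside 88.4% and 64.2% of all genes. Ehhadh, the peroxisomal bifunctional enzyme, was at 10486, 12072, 8850, 8291 and 10308 with episesamin and at 10535, 6143, 11049, 9552 and 10128 with sesamolin. The values overlapped, with sesamolin replicate 2 again the lowest, and the difference was -0.09 ± 0.19 (interval -0.49 to 0.30). Pex11a, which promotes peroxisome division, was at 1494 ± 266 and 1250 ± 489 against 192 without lignan. Its difference of -0.33 ± 0.23 had an interval from -0.81 to 0.15, so a sesamolin level lower by more than 1.5-fold is not excluded by it. Of the 17 peroxisome biogenesis genes measured, 6 rose against the lignan-free diet (4.61% of all genes did). Between the diets 16 lay within 2-fold (88.4% of all genes did), and the median difference was -0.01.

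Acyl-CoA thioesterases release free fatty acids from coenzyme A and included the largest rise. Acot1 was at 6181, 6181, 5588, 5494 and 5969 with episesamin and at 6444, 4135, 5862, 5343 and 5576 with sesamolin. Both sets of arrays overlapped and lay far above the lignan-free mean of 7.42, a level below the filter, where the size of a fold depends on the offset. The difference between the diets was -0.12 ± 0.36 (interval -0.87 to 0.63). Acot2 stood at 2143 ± 192 and 1889 ± 144 with a difference of -0.18 ± 0.13 (interval -0.44 to 0.08), and Acot3 at 495 ± 81.4 and 440 ± 145. Of 22 genes of acyl-CoA hydrolysis, fatty acid uptake and activation, 9 rose and 3 fell against the lignan-free diet (4.61% and 4.41% of all genes did). Between the diets 21 lay within 2-fold (88.4% of all genes) and 12 within 1.5-fold, a smaller share than the 64.2% of all genes. Slc27a2, which imports and activates very long chain fatty acids, was nearly level at 8812 ± 872 and 8995 ± 557.

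The omega-hydroxylase Cyp4a1, a classical PPAR alpha target, was at 10815, 10903, 10271, 10442 and 11239 with episesamin and at 12171, 9484, 12266, 11688 and 11049 with sesamolin. Those values overlapped and gave a difference of 0.07 ± 0.10 (interval -0.14 to 0.29). Cyp4a3 gave 0.04 ± 0.12 (interval -0.21 to 0.29). Among 11 genes of the omega-oxidation list, 4 rose and 2 fell against the lignan-free diet (4.61% and 4.41% of all genes did). Between the diets 9 lay within 2-fold and 6 within 1.5-fold, smaller shares than the 88.4% and 64.2% of all genes.

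**Figure D2:**
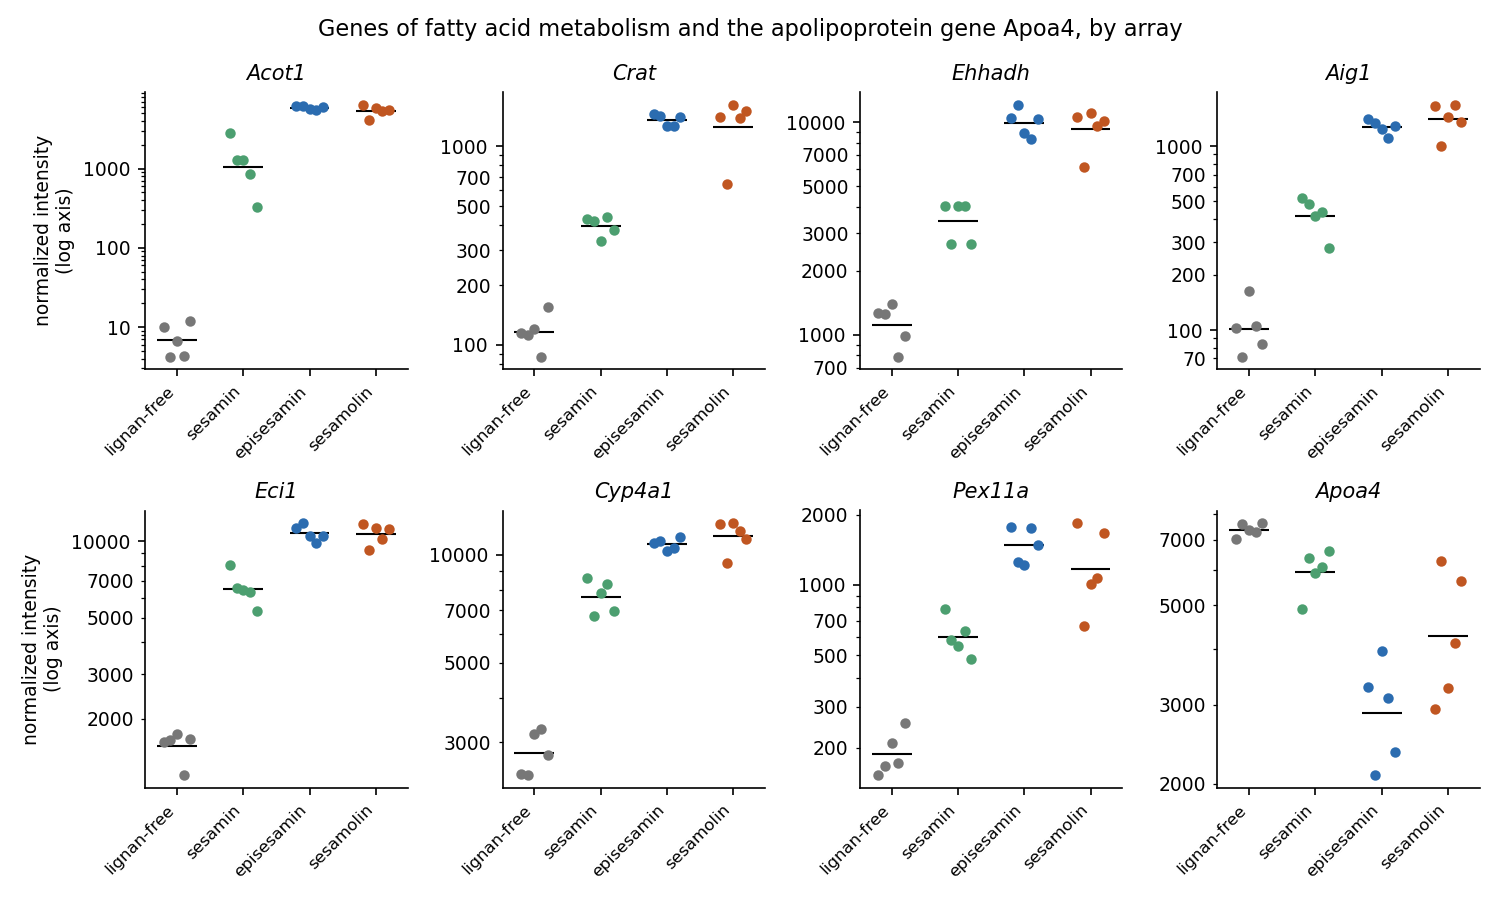
Normalized intensity on a log axis, 1 point per array with a line at the geometric mean, for 8 responsive genes in the 4 diets. The episesamin and sesamolin points overlap in all 8 panels, sesamolin replicate 2 is the low sesamolin point of Crat (643), and Apoa4 is lower than without lignan in both diets with sesamolin values from 2937 to 6272 and episesamin values from 2092 to 3957.

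Single genes outside the oxidation lists follow. Angptl4, a secreted inhibitor of lipoprotein lipase, was at 3249 ± 294 with episesamin and 2958 ± 417 with sesamolin. Its difference was -0.14 ± 0.27 (interval -0.71 to 0.43). Plin2, a lipid droplet coat protein, gave -0.06 ± 0.12 (interval -0.31 to 0.20). Aig1, a hydrolase of fatty acid esters of hydroxy fatty acids, was among the largest rises, from 106 without lignan to 1274 ± 115 and 1426 ± 272, with a difference of 0.14 ± 0.19 (interval -0.26 to 0.55). Of 13 genes of coenzyme A and NAD synthesis, 3 rose and 1 fell (4.61% and 4.41% of all genes did). All 13 lay within 1.5-fold between the diets, as did 64.2% of all genes. Pank1, which starts coenzyme A synthesis, gave 0.11 ± 0.10. Colq, a collagen-like anchor of acetylcholinesterase, rose from 18.6 to 268 ± 38.9 and 241 ± 48.1 (interval of the difference -0.68 to 0.36).

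**Figure D3:**
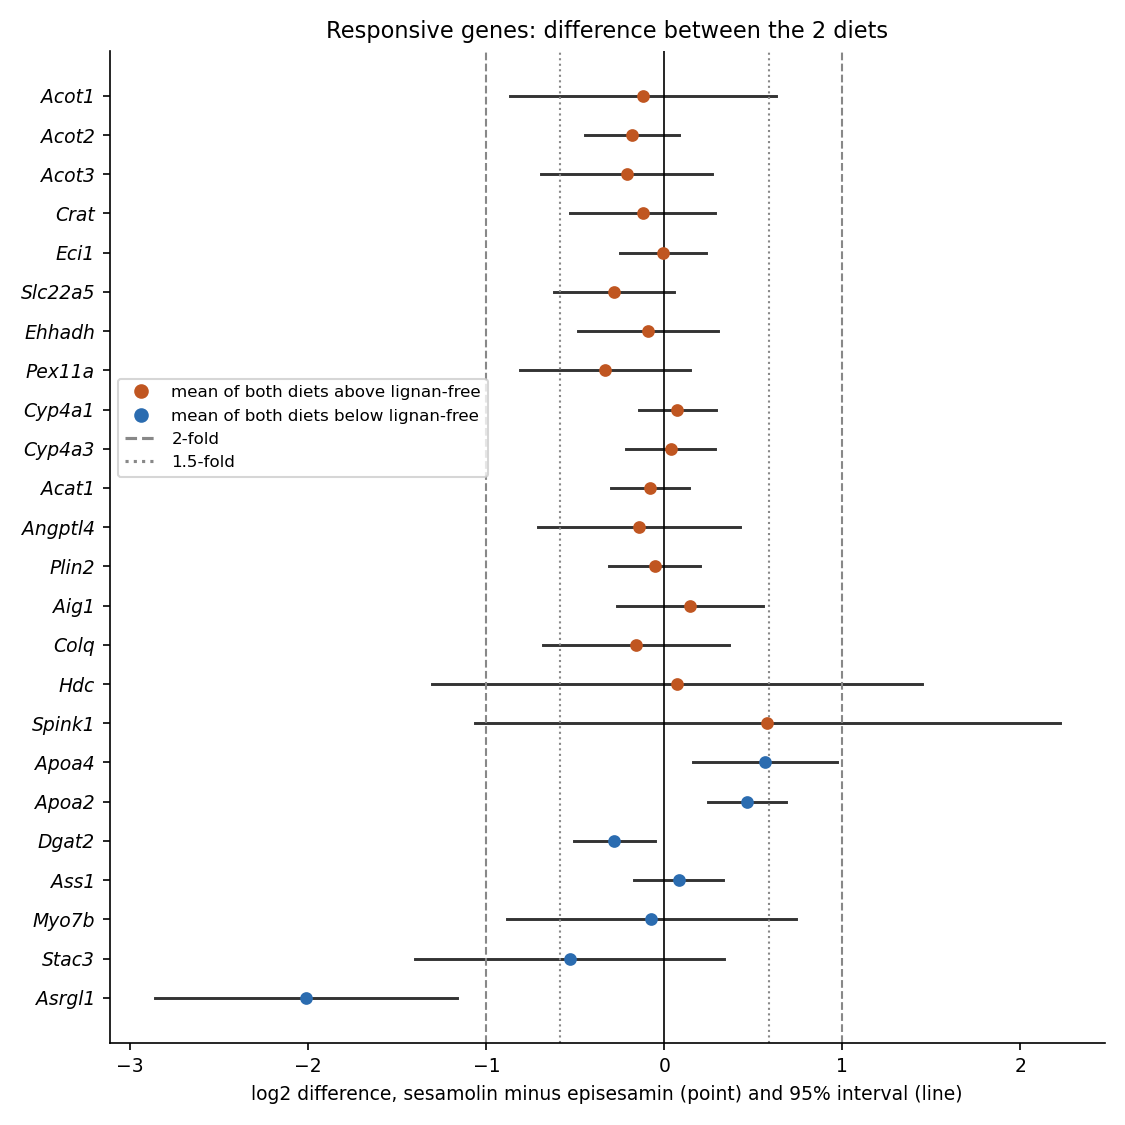
Log2 difference, sesamolin minus episesamin, with its 95% interval for 24 responsive genes, with lines at 1.5-fold and 2-fold in either direction. Genes of fatty acid oxidation lie around 0 (Eci1 at -0.01, Cyp4a1 at 0.07), Hdc and Spink1 have intervals that pass 2-fold on both sides, and Asrgl1 is the only one of these 24 whose interval lies wholly beyond 2-fold.

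For several strongly raised genes the rats differed too much among themselves to bound the difference. Hdc, which makes histamine, was at 1377, 1356, 364, 71.6 and 1379 with episesamin and at 1290, 202, 566, 787 and 771 with sesamolin. Both diets spanned several-fold, and the interval ran from -1.31 to 1.44 around 0.07. Spink1, a secreted trypsin inhibitor, was at 292, 389, 1788, 1895 and 188 with episesamin and at 2492, 249, 1407, 1621 and 389 with sesamolin, in each diet with some rats low and some high. Its interval was -1.06 to 2.22. On the mean of the diets the change was 2.46 on the chosen Spink1 probe set, 2.24 on another and 0.58 on the dimmest. Nim1k, a protein kinase, gave -0.21 ± 0.46 (interval -1.17 to 0.76), Acsm2, a medium-chain acyl-CoA synthetase, -0.05 ± 0.47, and the acetylcholine receptor subunit Chrna2 0.24 ± 0.38.

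Of the 34 genes that fell by at least 2-fold on the mean of the diets, 19 had an interval within 2-fold and 3 within 1.5-fold between the diets (88.4% and 64.2% of all genes did). A mean below the filter level in at least one of the diets was found for 15 of the 34. Myo7b, an unconventional myosin, was at 24.8, 43.2, 32.3, 15.9 and 36.6 with episesamin and at 30.9, 34.4, 23.5, 37.3 and 16.1 with sesamolin, against 168 without lignan. The 2 diets overlapped (difference -0.07 ± 0.39, interval -0.89 to 0.74). Stac3, an adaptor of the muscle calcium channel, was at 323 ± 133 and 240 ± 136 against 827 without lignan (interval -1.40 to 0.34). Art4, Tsx, Duoxa1 and Hlx fell to mean levels between 4.96 and 38.4, and their intervals passed 2-fold on at least one side.

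The candidate differences are the 12 genes of lowest p, none of them called. Uncharacterised loci were passed over in this order. Akr7a3 led with 401, 346, 446, 374 and 388 after episesamin and 606, 688, 673, 709 and 678 after sesamolin. Every sesamolin rat was above every episesamin rat, and the difference was 0.77 ± 0.14 (interval 0.48 to 1.07, adjusted p = 0.368). The lignan-free mean of 530 lay between the diets and the sesamin mean was 412. Adjusted p fell below 0.05 in 4 of 38 alternative settings, among them 0.0456 when the 10 arrays of the 2 diets were fitted alone, 0.0256 without lignan-free replicate 2 and 0.0317 without lignan-free replicate 3. Gpx2, a glutathione peroxidase and like Akr7a3 a target of NRF2, also had every sesamolin rat above every episesamin rat at 46.8 ± 18.1 against 18.1 ± 3.56 (difference 1.08 ± 0.40, adjusted p = 0.843). Of the 30 glutathione and NRF2 genes measured, 17 were higher and 13 lower with sesamolin, the median difference was 0.03, and 3 had an unadjusted p below 0.05, all higher with sesamolin (2.82% of all genes). Nqo1, the usual marker of NRF2 activity, was at 496 ± 93.2 with episesamin and 403 ± 134 with sesamolin.

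Asrgl1, which hydrolyses asparagine and isoaspartyl peptides, was at 162, 154, 44.0, 112 and 29.7 with episesamin and at 20.1, 14.1, 15.3, 15.9 and 16.1 with sesamolin. All sesamolin rats were below all episesamin rats and on average below the filter level of 17.8. The lignan-free mean was 179 and the sesamin mean 301. The fitted difference was -2.01 ± 0.40 (interval -2.86 to -1.17, adjusted p = 0.368), and its size rests on the probe set, since the other 2 gave -0.70 and -0.37. In the fit of the 10 arrays alone a different probe set was brightest, and the difference was -0.70. Sez6, a transmembrane protein known from neurons, was at 354, 298, 391, 517 and 357 with episesamin and at 195, 209, 131, 122 and 308 with sesamolin. Those ranges touch only through the lowest episesamin and the highest sesamolin rat, and the difference was -1.02 ± 0.21 (interval -1.47 to -0.58, adjusted p = 0.368). For both genes the order of the means was sesamolin, episesamin, lignan-free and sesamin from low to high.

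**Figure D4:**
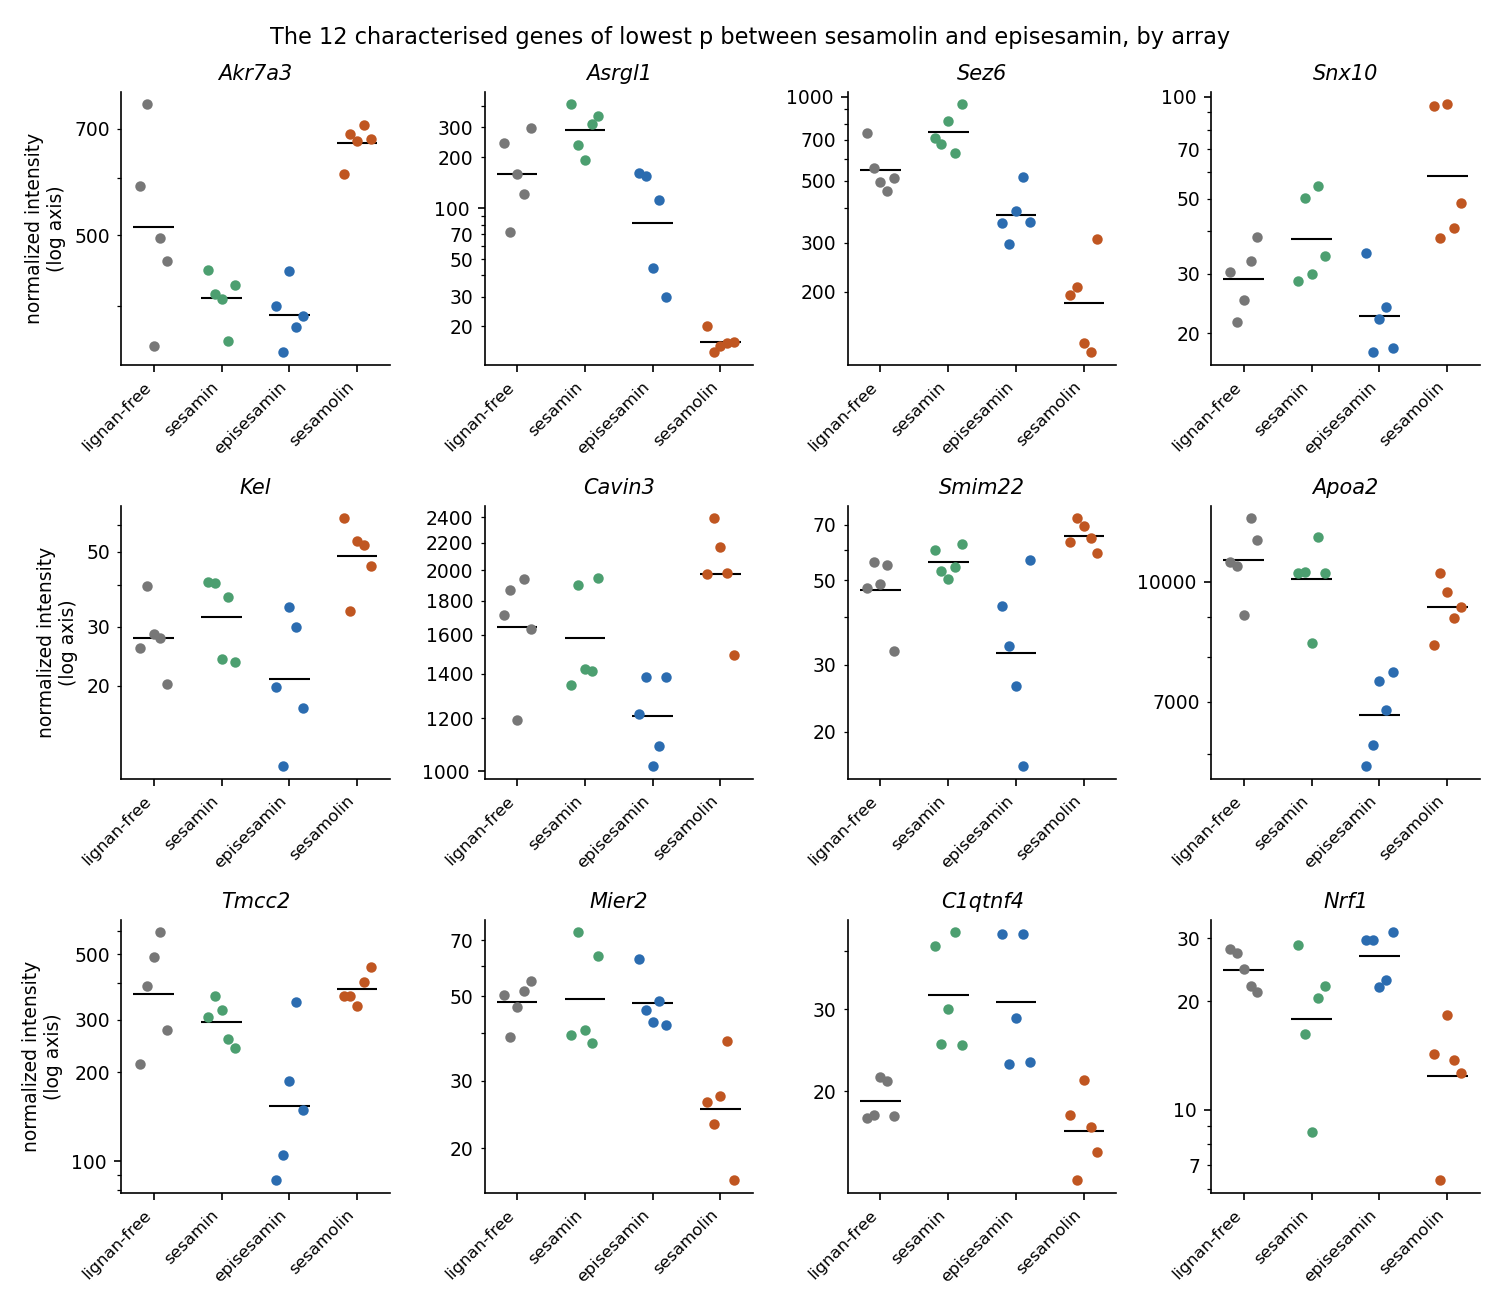
Normalized intensity on a log axis, 1 point per array with a line at the geometric mean, for the 12 characterised genes of lowest p between the 2 diets, in all 4 diets. Akr7a3 is the gene of lowest p, with sesamolin values from 606 to 709 above episesamin values from 346 to 446; Asrgl1 and Sez6 are lowest with sesamolin, and Apoa2 is lowest with episesamin.

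Apoa2, a main protein of high density lipoprotein, was at 5783, 6161, 7445, 6825 and 7658 with episesamin and at 8291, 10271, 9714, 8988 and 9277 with sesamolin. No episesamin rat reached the lowest sesamolin rat. The difference was 0.46 ± 0.10 (interval 0.24 to 0.68, adjusted p = 0.449), which bounds it below 2-fold. Against the lignan-free mean of 10708 Apoa2 fell with episesamin by 0.66 (adjusted p = 0.000614), while sesamolin gave -0.20 (adjusted p = 0.298). Apoa4, an apolipoprotein of triglyceride-rich particles, was at 3290, 2092, 3957, 3102 and 2350 with episesamin and at 2937, 6272, 3274, 4115 and 5679 with sesamolin. The values overlapped, and the difference was 0.56 ± 0.19 (interval 0.16 to 0.97, adjusted p = 0.817). Apoa1, the other main protein of high density lipoprotein, was at 10760 ± 675 and 11190 ± 739. Of 17 apolipoprotein and lipoprotein assembly genes, 5 fell and 0 rose against the lignan-free diet (4.41% and 4.61% of all genes did). Between the diets 2 had an unadjusted p below 0.05, both higher with sesamolin (2.82% of all genes), and the median difference was 0.00.

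The remaining candidates were mostly dimmer. Snx10, a sorting nexin of endosomes, was at 23.2 ± 6.91 with episesamin and 63.2 ± 28.6 with sesamolin without overlap (1.18 ± 0.25), and its other probe set gave 0.46. Kel, a membrane endopeptidase of the Kell blood group, gave 1.01 ± 0.22, but its other probe set, which was above the filter on only 2 arrays, gave -1.25. Nrf1, nuclear respiratory factor 1, gave -0.82 ± 0.20 on the chosen probe set and 0.96 on a dimmer one. For Kel and Nrf1 the probe sets thus disagree in direction. Cavin3, a caveolar coat protein, was brighter at 1218 ± 168 and 2002 ± 333 and did not overlap (0.71 ± 0.15). Smim22 and Tmcc2 stood higher with sesamolin by 0.89 ± 0.20 and 1.27 ± 0.30. Mier2, a partner of histone deacetylases, and the secreted protein C1qtnf4 stood at -0.77 ± 0.18 and -0.73 ± 0.17. The other Mier2 probe set gave -0.82. Other C1qtnf4 probe sets, above the filter on 2 arrays and on 1, gave 0.57 and -0.02, so the decrease was seen on the chosen probe set only. Among responsive genes the next in order of p were Slc16a12, a creatine transporter, at 397 ± 42.2 with episesamin and 259 ± 57.4 with sesamolin (-0.62 ± 0.16, no overlap), Add3, a membrane skeleton protein, at -0.37 ± 0.10, and the laminin Lama4 at -0.52 ± 0.16. The other probe sets of Slc16a12, Add3 and Lama4 gave -0.17, 0.13 and -0.16, so those of Add3 disagree in direction as well. When all probe sets of a gene were averaged, Add3 stood at -0.12 and Slc16a12 at -0.40, and without the arrays of raw mean below 200 Kel stood at 1.57 and Smim22 at 0.56.

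Further lists were read against the 5.73% of all genes with an unadjusted p below 0.05. Of 25 lipogenesis genes 1 had such a p: Mlxipl, the carbohydrate response factor, at 129 ± 18.0 with episesamin and 99.6 ± 12.2 with sesamolin (-0.35 ± 0.12). In the list of lipid droplet and triglyceride turnover 3 of 16 did, all lower with sesamolin, among them Dgat2, the last enzyme of triglyceride synthesis (2118 ± 131 and 1751 ± 222, -0.28 ± 0.11). Its members lay on both sides, 8 higher and 8 lower, with a median difference of 0.03. Of 16 interferon-induced genes 3 did, all higher with sesamolin, and the list's median difference was 0.18. Ifit1, which binds viral RNA, was at 26.3, 31.8, 22.6, 159 and 40 with episesamin and at 179, 89.1, 112, 88.9 and 84.6 with sesamolin. A single episesamin rat, replicate 4, overlapped the sesamolin rats. The difference was 1.22 ± 0.34 (adjusted p = 0.623), and without that rat it was 1.67 ± 0.20 (adjusted p = 0.0015). Since that rat is the one whose value overlaps, its omission favours a difference, and the second p is a description.

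No member of the circadian clock list had an unadjusted p below 0.05, yet 6 of its 14 genes had intervals that passed 2-fold; Per2, a clock repressor, was at 65.3 ± 39.8 and 29.3 ± 18.9. Of 19 genes that make or transport bile acids, 0 reached that level. Cyp7a1, the rate-limiting enzyme of bile acid synthesis, was at 52.2 ± 32.8 and 78.0 ± 26.8 (0.63 ± 0.46, interval -0.33 to 1.58). Of 17 genes of the CAR and PXR list, which are xenobiotic receptors, 1 did, and 8 rose against the lignan-free diet (4.61% of all genes rose). Of 43 genes of amino acid breakdown and the urea cycle 2 did, and of 21 cell cycle genes 2, with 19 of the 21 lower with sesamolin and a list median of -0.13. Over all genes 50.2% were higher with sesamolin.

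All 8 measured markers of Kupffer cells, the macrophages of the liver, were lower with sesamolin, with a median difference of -0.29. Over all genes 50.2% were higher with sesamolin. Of the 8 markers, 3 had an unadjusted p below 0.05 and a lower level, as did 2.91% of all genes, and 4 fell against the lignan-free diet (4.41% of all genes fell). Clec4f, a lectin of Kupffer cells, was at 1154, 859, 1254, 1311 and 1107 with episesamin and at 662, 906, 1168, 976 and 707 with sesamolin, which overlap (-0.38 ± 0.16, adjusted p = 0.867). The complement genes C1qa and C1qc gave -0.28 ± 0.13 and -0.31 ± 0.14. The summed level of the markers was 3998 ± 337 (3661 to 4546) with episesamin and 3298 ± 623 (2582 to 4153) with sesamolin (exact permutation p = 0.0635, two-sided, n = 5 per diet). In whole liver, fewer cells of a type and less RNA per cell cannot be told apart. All 7 stellate cell and fibroblast markers were lower too, with a median of -0.13, and their summed level was 3171 ± 244 and 2913 ± 424 (exact permutation p = 0.286). The part of these cells in other differences was not tested.

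Some genes had large fitted differences together with a wide spread among the rats of a diet; they were picked out after their values were seen. Ugt2b, a glucuronosyltransferase, was at 17.3, 5481, 4566, 4813 and 5705 with episesamin and at 6.42, 6.67, 4720, 109 and 37.1 with sesamolin. In each diet at least 1 rat lay below the filter level and at least 1 was at 4720 or higher. Lignan-free rats spanned 14.8 to 5825 and sesamin rats 177 to 5080. The difference of -4.42 ± 1.91 between sesamolin and episesamin had an interval from -8.42 to -0.42 (adjusted p = 0.867). Cdh17, a cadherin, gave -2.16 ± 0.60, and the major histocompatibility gene RT1-Bb gave -1.84 ± 0.92. Ubd, a ubiquitin-like modifier, gave 1.77 ± 0.74, the liver transcription factor Onecut1 1.71 ± 0.80 and the urinary protein gene Obp3 1.08 ± 0.47. The values moved when arrays were left out: Ugt2b was at -5.97 and Ubd at 1.09 without episesamin replicate 1 and 2 respectively, RT1-Bb at -1.20 without sesamolin replicate 2, and Obp3 at 0.68 and Onecut1 at 2.26 without episesamin replicate 5. Without the arrays of raw mean below 200 Ugt2b was at -2.25, Onecut1 at 0.05 and Obp3 at 1.83. Each of these 6 genes had overlapping diets and an adjusted p above 0.6.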

How the data were processed

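Liver RNA of single rats was converted to biotin-labelled cRNA and measured on 20 arrays, per the labels' protocols. The authors deposited 1 linear intensity per probe set and array (31099 probe sets); for these values the software is not given in the sources. Rats of different groups are separate animals, and no 2 columns were identical. Intensities were quantile normalized, and log2(intensity + 5.85), with the 20th percentile as offset, was used. The platform annotation gave a single symbol for 20832 probe sets, several for 436 and none for 9831; 57 controls were left out. Probe sets above 17.8 (40th percentile) on at least 5 arrays were kept, and the brightest stood for its gene, which left 11576 genes. Of these, 352 would fail this filter without the episesamin arrays and 368 without the sesamolin arrays. For 107 of the genes tested, Eci1 and Snx10 among them, the probe set name has a suffix that marks possible cross-hybridisation. Of the Entrez IDs, 20764 probe sets matched RefSeq.

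Means of 4 groups were fitted in limma (version 3.58.1, R 4.3.3), which had 16 residual degrees of freedom and a prior worth 2.59, with two-sided moderated tests and Benjamini-Hochberg adjustment over genes. The fit was tested on simulated data. Same-numbered episesamin and sesamolin arrays were not paired by their labels or by their deviations from the group means (correlations from -0.059 to 0.216). Named genes were the 12 of lowest p between the diets, the 10 largest rises and 6 largest falls of responsive genes, the 6 responsive genes of lowest p, the 4 responsive genes of largest SE among those changed at least 2-fold, and from each list up to 3 bright members and 2 of lowest p; uncharacterised loci were passed over. Genes outside this rule are marked. The comparison, the lists and the rules were chosen with earlier results of these data known. Alternatives concerned normalization, offset, filter, choice of probe set, the model, covariates, the replicate block, adjustment over 3 lignan pairs, and leaving out arrays.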

Additional observations from a re-analysis of the deposited data

Results flagged for a closer look

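An array was singled out where its gap to the nearest other array of its diet, as a share of the diet's whole range, was above 0.71. This applied to 15 of 228 values tested, and chance gives about 5%. With sesamolin replicate 1 it was Abcb1a (share 0.942, level 3.2, others 20.4 to 22.2) and Acox2 (0.824, 1374 against 797 to 877). With sesamolin replicate 2 it was Crat (0.829, 643 against 1384 to 1621), Ehhadh (0.752, 6143 against 9552 to 11049), Scp2 (0.798, 10011 against 8578 to 8850) and Sult1c2 (0.762, 43.6 against 89.3 to 110.9). With sesamolin replicate 5 it was Trib3 (0.720, 215 against 57.3 to 83.8).

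Among episesamin arrays, replicate 1 stood apart for Ugt2b (0.960, 17.3 against 4566 to 5705). Replicate 2 did so for Cidec (0.727, 691 against 741 to 761) and Ubd (0.867, 50.6 against 482 to 672). Replicate 3 did so for Cxcl1 (0.771, 83.0 against 11.6 to 19.5), Duoxa1 (0.874, 13.1 against 2.6 to 3.5) and Glud1 (0.718, 6120 against 4786 to 5130). Replicate 4 did so for Ifit1 (0.729, 159 against 22.6 to 40) and replicate 5 for Acat1 (0.916, 3864 against 5152 to 5290).

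Among probe sets with no listed gene, 1 gave a log2 difference of 1.66 when all probe sets were tested (adjusted p = 0.0356). Its mean level was 2.89 with episesamin and 22.5 with sesamolin, beside 10.1 without lignan and 17.9 with sesamin.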

How the results depend on the processing

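Genes with an interval within 2-fold between the diets numbered 79.4% to 97.4% of those tested over the alternatives other than leaving out single arrays, and within 1.5-fold 48.8% to 80.2%. The count of genes higher with sesamolin was 1 when only the 10 arrays were fitted (Akr7a3), 1 without arrays whose mean raw intensity was under 200 (Ifit1), 1 when all probe sets were tested (a probe set with no listed gene; this alternative was chosen after seeing the data) and 6 with adjustment over the 3 pairs of lignans together. The count of lower genes was 1 without a filter (Ccna1, at 13.3 with episesamin and 1.39 with sesamolin, both below the filter level) and 2 with the joint adjustment, in which 3 responsive genes were called. Responsive genes within 1.5-fold numbered 366 with no normalization between arrays, 415 without the dim arrays and 519 without the arrays numbered 1; in each case fewer genes were responsive (752, 628 and 695). Leaving out 1 array at a time gave 0 to 1 higher genes (Akr7a3 without lignan-free replicate 2 or 3, Ifit1 without episesamin replicate 4), 0 lower genes, 516 (without lignan-free replicate 5) to 824 responsive genes within 1.5-fold, and 26.7% (without sesamolin replicate 1) to 55.1% (without sesamolin replicate 2) of the genes raised at least 2-fold higher with sesamolin. With the replicate number as a block, 0 genes were higher and 0 lower, 10292 lay within 2-fold and 7619 within 1.5-fold; 1 of 5 sesamolin arrays correlated best with the episesamin array of its own number. Of 3825 values of 101 named genes under the alternatives, 3738 stayed on their side of the threshold, 48 crossed to the weaker side and 39 to the stronger side. For the 15 genes of lowest p the threshold was the adjusted p, and 0 of their values changed sign. For the others it was an interval within 2-fold, whatever the sign, and 95 values of 26 genes changed sign (Eci1 and Hdc among them). The dim genes have the widest intervals.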
